A study of Homo sapiens with 12 samples.

Results

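The genes described here are 10 listed together as feedback inhibitors of NFκB signalling, most of which NFκB itself is known to induce: NFKBIA, NFKBIB, NFKBIE, NFKBIZ, TNFAIP3, TNIP1, TRAF1, BIRC3, CYLD and ZC3H12A. They were chosen by name, as the rows of the count table that carry these symbols. The word inhibitor names this list, and whether each gene inhibits NFκB in these cells was not tested. All 10 were found among the 12451 entries used, and all 10 were among the 11303 genes that passed the filter on low values. The cells were MDA-MB-231-ERβ, a triple negative breast cancer line engineered to express full-length ERβ when doxycycline (dox) is added. RNA-seq was available for 12 libraries in 4 groups of 3. The vehicle group received ethanol. The E2 group received 1 nM 17β-estradiol for 5 days, with the medium refreshed on day 3. The TNFα group received 20 ng/ml TNFα for the final 3 hours, and the E2+ TNFα group received both agents. Dox was given throughout in all groups, the vehicle included; for the E2+ TNFα group this comes from the treatment protocol and the study's methods rather than from the sample labels. No group lacked ERβ, so a response that needs the receptor and one that does not cannot be separated here. The replicates were parallel cultures of one engineered line, and p-values measure the spread between these cultures.

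NFκB dimers rest in the cytoplasm bound to IκB proteins. TNFα binding to its receptor assembles a ubiquitin scaffold that activates the IκB kinase complex, the IκB proteins are degraded and the freed dimers enter the nucleus, where they bind κB sites. Among the genes they induce are those of their own inhibitors, which restore the IκB pool, take ubiquitin chains apart at the receptor complex or destroy inflammatory transcripts. NFKBIA, NFKBIB and NFKBIE encode the cytoplasmic inhibitors IκBα, IκBβ and IκBε, and NFKBIZ encodes the nuclear protein IκBζ, which modulates NFκB at promoters. TNFAIP3 encodes the ubiquitin-editing enzyme A20, TNIP1 its binding partner ABIN1, and CYLD a deubiquitinase that removes linear and Lys63-linked chains. TRAF1 is an adaptor of TNF receptor family complexes and BIRC3 the ubiquitin ligase cIAP2, and ZC3H12A encodes the endoribonuclease Regnase, which degrades cytokine transcripts.

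The promoters of most of these genes hold letters that match a κB site, shown here because they are what the members share in sequence. RefSeq windows on GRCh38.p14, running from 250 bases before to 50 bases after each start, matched 9 of the 10 genes, all but NFKBIE. A consensus κB site of 10 bases, searched on both strands and with overlapping matches kept, was present in the windows of 7 of the 9. Among the tested genes with a window 8.97% held one, and among all genes with a window 7.09%. Capitals mark the match, which is written with its flanks 5′ to 3′ on the strand of the gene.
NFKBIA chr14:35404806-35404845 (minus strand): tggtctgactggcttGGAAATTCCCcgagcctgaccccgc
NFKBIB chr19:38899926-38899966 (plus strand): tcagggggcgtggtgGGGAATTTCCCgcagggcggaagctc
NFKBIZ chr3:101827752-101827791 (plus strand): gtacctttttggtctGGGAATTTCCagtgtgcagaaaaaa
TNFAIP3 chr6:137867177-137867228 (plus strand): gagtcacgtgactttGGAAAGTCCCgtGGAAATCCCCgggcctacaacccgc
TNIP1 chr5:151081052-151081091 (minus strand): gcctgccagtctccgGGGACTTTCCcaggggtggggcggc
BIRC3 distal chr11:102317270-102317309 (plus strand): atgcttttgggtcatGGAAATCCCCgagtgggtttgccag
BIRC3 proximal chr11:102317334-102317373 (plus strand): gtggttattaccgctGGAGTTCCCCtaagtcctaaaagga
CYLD chr16:50741882-50741921 (plus strand): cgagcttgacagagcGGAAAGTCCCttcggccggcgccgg

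Distances are to the start in the window that holds the match. The match began 81 bases upstream of the start in NFKBIA, 28 in NFKBIB and 42 in TNIP1. The matches of NFKBIB, TNFAIP3 and TNIP1 lie inside the locus as counted, before a start within it. The other window of NFKBIB and of TNIP1 held no match. TNFAIP3 held a tandem pair, the first of which began 67 bases upstream. The BIRC3 matches began 199 and 135 bases upstream, that of CYLD 189, and that of NFKBIZ 223 bases upstream of its first start. In NFKBIB the run in capitals holds a pair of overlapping matches, 1 on each strand, and a further match in another window of NFKBIZ and of CYLD is not shown. The windows of TRAF1 and ZC3H12A held no match, which says only that these letters are not in them. A match in letters is a description of the sequence and no measurement of binding.

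Library totals ran from 7652016 counts (an E2 library) to 39943664 (a vehicle library), and the lowest count of any of the 10 genes in any library was 117, so all were counted well above the limit of detection. Levels are given as CPM, counts scaled to each library's TMM-adjusted total. The mesenchymal marker VIM ran from 1042 to 1668 CPM. ESR2, the induced ERβ gene, differed between the groups, at 457 to 487 CPM in vehicle, 228 to 282 with TNFα, 293 to 322 with E2 and 405 to 508 with E2+ TNFα. CDH1, low in the parent line, was at 1.77 to 3.62 CPM without E2 and at 32.2 to 53.4 CPM with E2, and the part of ESR2 and CDH1 in the results below was not tested. The vehicle libraries stood apart from the other 9. Against vehicle, log2 fold change followed exon GC content over all genes tested, with a Spearman correlation across genes of 0.706 for TNFα, 0.655 for E2 and 0.665 for E2+ TNFα. The fifth of genes with the lowest GC content had a median log2 fold change of -1.92 after TNFα and the fifth with the highest a median of 0.81. Whether the vehicle libraries were prepared or run separately is not given in the sources used here, and such a batch and the vehicle condition cannot be told apart. E2+ TNFα against E2 and against TNFα, which use no vehicle library, gave correlations of -0.331 and -0.21, and are therefore given first below. Comparisons with vehicle are given with a second value, after removal of the trend of each library with GC content and gene length, and where it matters with another, from a fit with 1 RUV factor taken from 20 housekeeping genes.

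**Figure D1:**
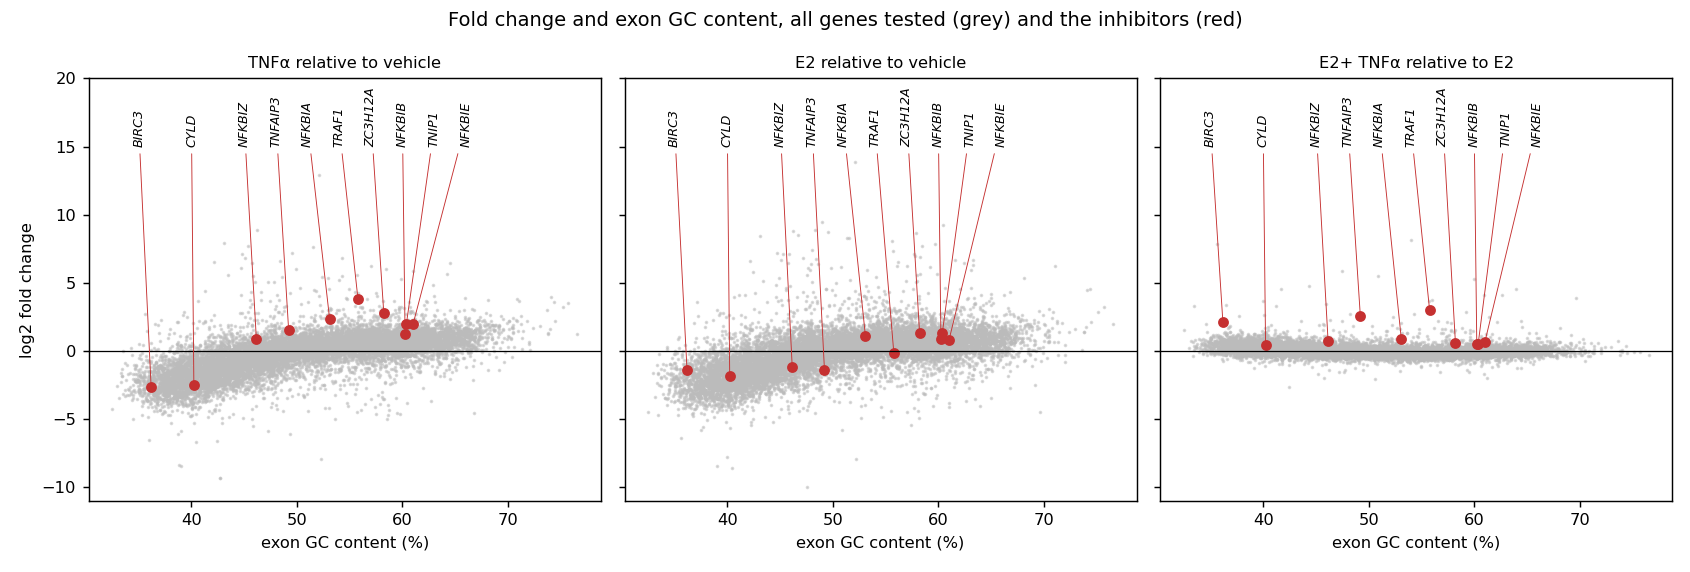
Log2 fold change (vertical axis) against exon GC content in percent (horizontal axis) for all genes tested (grey points) and the 10 inhibitors (red points, named) in 3 comparisons. In the left and middle panels, which use the vehicle libraries, the grey cloud climbs with GC content and BIRC3 and CYLD lie at its low end. In the right panel, without vehicle, the trend is weaker and runs the other way (Spearman correlation -0.331).

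The exon GC content of the 10 genes spanned much of that range. It was 36.2% for BIRC3, 40.2% for CYLD, 46.2% for NFKBIZ and 49.2% for TNFAIP3. NFKBIA had 53.1%, TRAF1 55.8%, ZC3H12A 58.2%, NFKBIB 60.2%, TNIP1 60.4% and NFKBIE 61.02%. BIRC3 and CYLD thus fell in the fifth of genes with the lowest GC content (at most 42%), and NFKBIB, TNIP1 and NFKBIE in the fifth with the highest (at least 59%).

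The first comparison asks how the inhibitors responded to TNFα in cells that also held E2. Of the 10 genes, 9 were higher in all 3 E2+ TNFα libraries than in all 3 E2 libraries, against 6.05% of all genes tested (9.27% were lower in this way), and the groups overlapped for CYLD. All 10 fitted log2 fold changes were above 0. With edgeR's quasi-likelihood test, 8 of the 10 rose (adjusted p of at most 0.1), where 2.65% of all genes did. In the fit without vehicle libraries 7 did, and the share of all genes in that fit was not counted. At the study's thresholds, which add a log2 fold change of at least 1.5 and an unadjusted p under 0.05, the 3 that rose were TRAF1, TNFAIP3 and BIRC3, against 0.389% of all genes, and 0.0177% of all genes fell. The median log2 fold change was 0.712 over the 10 genes and 0.00823 over all genes. In bulk RNA a change in the share of responding cells and a change per cell cannot be told apart.

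TRAF1 (chr9:120902393-120929173, minus strand, hg38) had the largest fold change of the 10. Its level was 29.4, 42.3 and 29.4 CPM in the E2 libraries and 262.4, 241 and 283.1 CPM in the E2+ TNFα libraries. Every E2+ TNFα library was far above every E2 library. The fitted rise was 7.86-fold (log2 fold change 2.97, SE 0.147, adjusted p = 9.61e-09).

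TNFAIP3 (chr6:137866317-137883314, plus strand, hg38), whose promoter window holds the tandem matches, had tight groups. It was at 68.4, 65.4 and 67.8 CPM in the E2 libraries and at 395.5, 384.5 and 414.5 CPM with TNFα added. The groups were far apart, with a 5.92-fold rise (log2 fold change 2.57, SE 0.118, adjusted p = 5.28e-09). Leaving out each library in turn kept its log2 fold change between 2.53 and 2.59.

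BIRC3 (chr11:102317373-102339403, plus strand, hg38) had the widest spread. Its level was 35.99, 21.9 and 22.4 CPM in the E2 libraries and 119.1, 190.6 and 49.1 CPM in the E2+ TNFα libraries. The groups did not overlap, but the third E2+ TNFα library was nearer to the highest E2 library than to the other two of its own group. The log2 fold change was 2.15 (SE 0.351, adjusted p = 0.00484), and it ran from 1.63 to 2.52 when single libraries were left out. It came to 1.46 once the GC and length trends were removed and to 1.33 with the RUV factor, both under the size threshold, with adjusted p of 0.000168 and 0.00277.

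The IκB genes rose by less. NFKBIA (chr14:35401510-35404754, minus strand, hg38) stood at 159, 141.9 and 148.8 CPM with E2 and at 280.5, 245 and 305 CPM with E2+ TNFα. The difference was 1.85-fold, well beyond the spread (log2 fold change 0.88, SE 0.107, adjusted p = 0.000239). NFKBIE (chr6:44258166-44265788, minus strand, hg38) went from 102.1, 137 and 95.3 CPM to 174, 151.5 and 206.6 CPM, a log2 fold change of 0.67 (SE 0.145, adjusted p = 0.0264). NFKBIZ (chr3:101827990-101861025, plus strand, hg38) went from 16.3, 22.5 and 20.0 CPM to 30.2, 37.3 and 30.3 CPM, a log2 fold change of 0.75 (SE 0.166, adjusted p = 0.0312). NFKBIB (chr19:38899657-38908894, plus strand, hg38) was above E2 in every E2+ TNFα library, at 48.1, 46.2 and 77.8 CPM against 40.4, 43.5 and 38.2 CPM, but did not pass the test. Its log2 fold change was 0.50 (95% interval 0.104 to 0.895, adjusted p = 0.157), whereas removal of the GC and length trends gave 0.60 with an adjusted p of 0.00434.

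Of the remaining 3, TNIP1 and ZC3H12A rose by small amounts. TNIP1 (chr5:151029943-151087660, minus strand, hg38) was at 898.3, 1099 and 868.4 CPM with E2 and at 1252, 1181 and 1605 CPM with E2+ TNFα, a log2 fold change of 0.50 (SE 0.136, adjusted p = 0.0684). In the fit without vehicle libraries the adjusted p of TNIP1 was 0.105, above the threshold of 0.1. ZC3H12A (chr1:37473455-37484377, plus strand, hg38) was at 79.4, 119.5 and 96.4 CPM with E2 and at 131.6, 134.3 and 167.4 CPM with both, a log2 fold change of 0.56 (SE 0.141, adjusted p = 0.0498). CYLD (chr16:50742050-50801936, plus strand, hg38) was at 27.0, 18.7 and 25.7 CPM and at 34.8, 38.2 and 25.1 CPM, and its groups overlapped. Its log2 fold change was 0.45 (95% interval 0.0613 to 0.829, adjusted p = 0.19) and -0.01 with the trends removed.

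**Figure D2:**
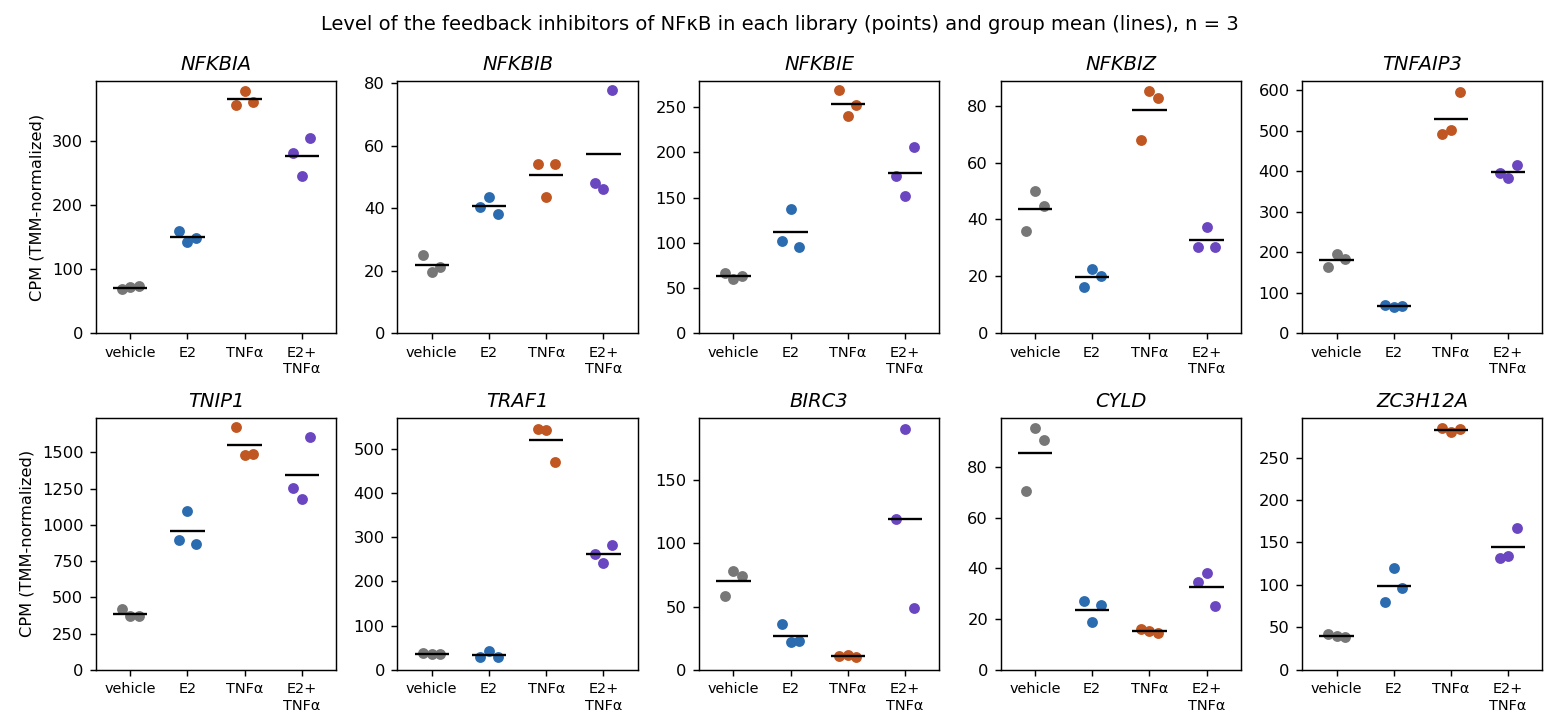
Level in CPM (vertical axes, TMM-normalized, from 0) of each inhibitor in every library (points) by group, with the group mean (line, n = 3). TNFAIP3 and TRAF1 stand far higher with E2+ TNFα than with E2, the highest points of NFKBIA, TRAF1 and ZC3H12A are those of TNFα alone, and BIRC3 is lowest with TNFα alone and spread from 49.1 to 190.6 CPM with E2+ TNFα.

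Some of these loci are shared with other annotated genes, and the strand setting of the counting is not given in the sources used here. NFKBIB overlaps SIRT2 on the opposite strand, and NFKBIZ overlaps NXPE3 on the same strand. TNFAIP3, TNIP1, BIRC3, CYLD and ZC3H12A each overlap a noncoding RNA on the opposite strand. Reads from such partners may be counted with these genes or lost from them.

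The second comparison asks whether E2 changed the level of the inhibitors once TNFα was present. Of the 10 genes, 6 were lower in all 3 E2+ TNFα libraries than in all 3 TNFα libraries, 2 were higher in all 3, and 2 overlapped. Over all genes tested 23.1% were lower and 23.7% higher in this way. By edgeR's adjusted p, 6 fell and 2 rose, where 21.0% of all genes fell and 24.4% rose. At the study's thresholds 1 gene rose, BIRC3 (3.55% of all genes did), and 0 fell (2.01% of all genes did), the 6 lower genes having an unadjusted edgeR p under 0.05 but a change below the size threshold. The median log2 fold change over the 10 genes was -0.405, and that over all genes 0.0419.

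The largest fall of the 10 was that of NFKBIZ. It was at 68.1, 85.3 and 82.8 CPM with TNFα and at 30.2, 37.3 and 30.3 CPM with E2+ TNFα. The highest library with E2 was below every library without it, and NFKBIZ fell by 1.27 on the log2 scale (2.41-fold, SE 0.159, adjusted p = 1.66e-05).

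TRAF1 and ZC3H12A fell by nearly the same amount. TRAF1 was at 544.4, 542.8 and 471 CPM with TNFα and fell by 0.99 on the log2 scale (SE 0.134, adjusted p = 3.73e-05). ZC3H12A was at 284.6, 280.6 and 283.1 CPM with TNFα, nearly equal in the 3 libraries, and fell by 0.97 (SE 0.14, adjusted p = 6.67e-05). Both kept a clear gap between the groups.

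NFKBIE, TNFAIP3 and NFKBIA fell by less. NFKBIE was at 268.7, 240.3 and 252.6 CPM with TNFα and fell by 0.52 on the log2 scale (SE 0.143, adjusted p = 0.0107). TNFAIP3 was at 492.3, 501.2 and 596.5 CPM and fell by 0.41 (SE 0.11, adjusted p = 0.00868). NFKBIA was at 356.1, 377.9 and 360.8 CPM and fell by 0.40 (SE 0.106, adjusted p = 0.00828). For each of the 3 the lowest TNFα library was above the highest E2+ TNFα library.

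TNIP1 and NFKBIB did not pass the test. TNIP1 was at 1674, 1483 and 1491 CPM with TNFα, and its log2 fold change was -0.20 (95% interval -0.492 to 0.0871). NFKBIB was at 54.1, 43.6 and 54.2 CPM, and its log2 fold change was 0.18 (95% interval -0.204 to 0.57).

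BIRC3 and CYLD rose. BIRC3 was at 11.0, 12.01 and 10.1 CPM with TNFα alone, below the lowest E2+ TNFα library (49.1 CPM) by a wide margin. It rose 10.8-fold (log2 fold change 3.44, SE 0.366, adjusted p = 3.16e-06), with log2 fold changes of 2.92 to 3.81 when single libraries were left out and 2.90 with the trends removed. CYLD was at 16.2, 15.4 and 14.6 CPM with TNFα, and rose by 1.09 on the log2 scale (SE 0.178, adjusted p = 0.000224), or 0.84 with the trends removed. These are the genes of lowest GC content among the 10, and in this comparison the fifth of genes with the lowest GC content had a median log2 fold change of 0.282. Any further part of GC content in these rises was not tested.

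**Figure D3:**
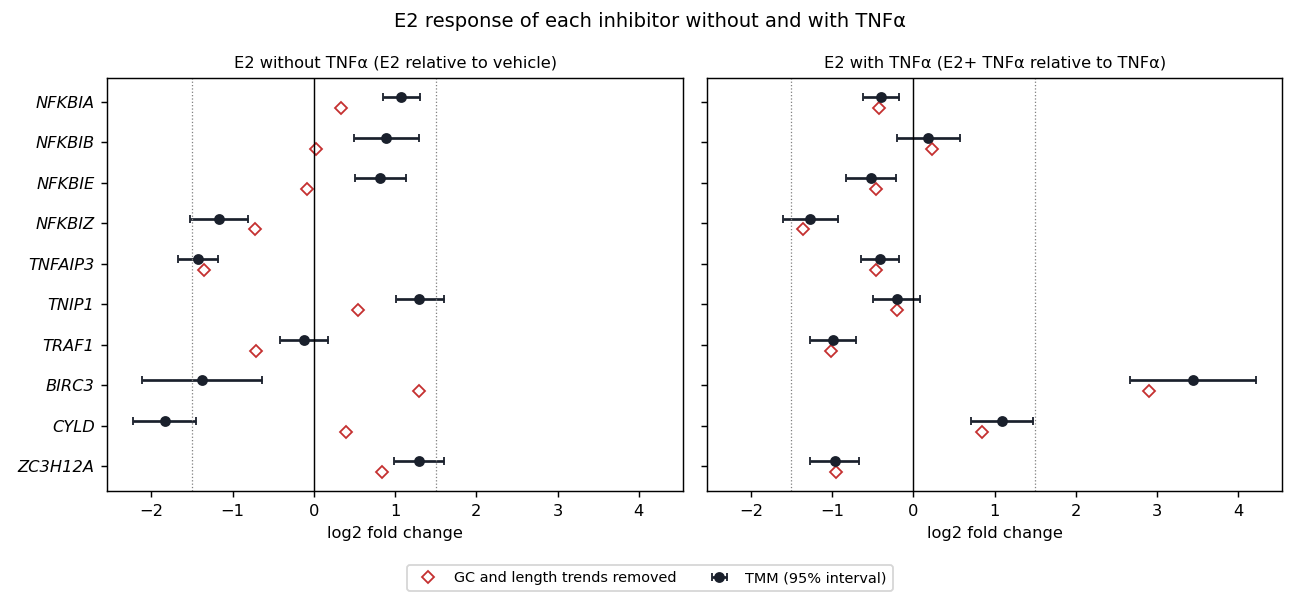
Log2 fold change (horizontal axis) of each inhibitor for E2 without TNFα (left) and with TNFα (right), as fitted with TMM (filled points, bars are 95% intervals) and with GC and length trends removed (open diamonds), dotted lines at the size threshold of 1.5. On the right, NFKBIZ, TRAF1 and ZC3H12A lie near -1 on both scales and BIRC3 at 3.44 with TMM and 2.90 with the trends removed, and on the left NFKBIE, BIRC3 and CYLD change sign between the scales.

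Against vehicle, TNFα alone gave adjusted p of at most 0.1 for all 10 genes, with 8 higher and 2 lower. That share has to be read against all genes, of which 40.3% were higher and 41.6% lower by the same test. At the study's thresholds 6 of the 10 rose and 2 fell, where 6.64% of all genes rose and 20.0% fell. After removal of the GC and length trends 4 rose (NFKBIA, TNFAIP3, TRAF1 and ZC3H12A) and 0 fell, and with the RUV factor the same 4 rose and 0 fell. Over all genes tested, 551 rose and 632 fell past those thresholds with the trends removed, and 423 rose and 696 fell with the RUV factor. In these fits edgeR gave 9 and 8 of the 10 genes an unadjusted p under 0.05, a share not counted over all genes.

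TRAF1, ZC3H12A and NFKBIA rose by the most in each of these fits. TRAF1 was at 37.3, 36.4 and 34.8 CPM in vehicle, and its log2 fold change after TNFα was 3.84 (SE 0.149, adjusted p = 4.72e-11), 3.34 with the trends removed and 3.23 with the RUV factor. ZC3H12A was at 42.1, 39.6 and 38.3 CPM, and its log2 fold changes were 2.82 (SE 0.149, adjusted p = 1.25e-09), 2.35 and 2.08. NFKBIA was at 68.8, 71.2 and 73.2 CPM, and its log2 fold changes were 2.36 (SE 0.111, adjusted p = 3.47e-10), 1.82 and 2.18. No TNFα library of these 3 genes came near a vehicle library.

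TNFAIP3 started from a higher level. It was at 162.3, 195.4 and 183.4 CPM in vehicle, and its log2 fold change after TNFα was 1.56 (SE 0.113, adjusted p = 2.74e-08), 1.62 with the trends removed and 1.504 with the RUV factor. It sits so near the size threshold that leaving out the first or the third vehicle library or the third TNFα library took it under, to 1.38 at the lowest. Scaling by library size alone (1.36) or keeping genes with at least 10 counts in every library (1.498) also took it under.

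The rises of TNIP1, NFKBIE and NFKBIB against vehicle shrank once the trends were removed. TNIP1 was at 420.5, 368.5 and 374.3 CPM in vehicle, and its log2 fold change after TNFα was 1.998, 1.295 with the trends removed and 1.16 with the RUV factor. NFKBIE, at 66.9, 59.6 and 62.97 CPM in vehicle, gave 2.01, 1.16 and 1.03. NFKBIB, at 25.01, 19.4 and 21.1 CPM, gave 1.21, 0.40 and 0.00, so that its rise depended on the scaling. NFKBIZ, of lower GC content, moved the other way, from 36.1, 50.1 and 44.7 CPM in vehicle, with log2 fold changes of 0.85, 1.32 and 1.25.

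The falls of BIRC3 and CYLD after TNFα shrank under both corrections. BIRC3 was at 58.5, 78.3 and 73.9 CPM in vehicle against 10.1 to 12.01 CPM with TNFα, a log2 fold change of -2.67 (SE 0.356, adjusted p = 7.03e-06). With the trends removed it was -0.15 (adjusted p = 0.458) and with the RUV factor 0.10 (adjusted p = 0.91). CYLD was at 70.8, 95.5 and 90.6 CPM in vehicle against 14.6 to 16.2 CPM with TNFα, a log2 fold change of -2.48 (adjusted p = 3.28e-08). It became -0.45 with the trends removed (adjusted p = 0.000957) and -1.3 with the RUV factor (adjusted p = 0.0114), so CYLD stayed lower but under the size threshold, whereas for BIRC3 the fall passed the test only without these corrections.

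**Figure D4:**
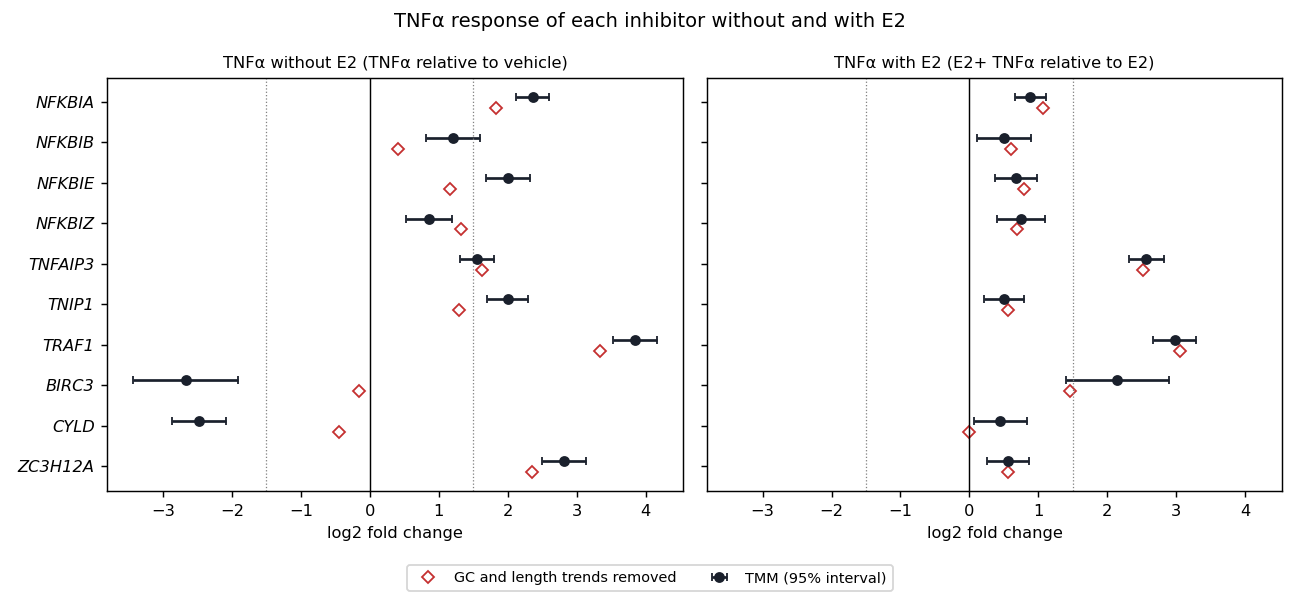
Log2 fold change (horizontal axis) of each inhibitor for TNFα without E2 (left) and with E2 (right), as fitted with TMM (filled points, bars are 95% intervals) and with GC and length trends removed (open diamonds), dotted lines at the size threshold of 1.5. TRAF1 is far right in both panels, at 3.84 and 2.97, and BIRC3 and CYLD move from below -2 to near 0 on the left when the trends are removed.

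E2 alone against vehicle gave a mixed picture. By adjusted p 5 of the 10 genes rose, where 40.1% of all genes did, and 4 fell, where 41.7% did. At the study's thresholds 1 fell, CYLD, where 20.6% of all genes fell, and 0 rose, where 9.87% did. With the trends removed 0 of the 10 passed those thresholds, where 830 of all genes tested rose and 745 fell. In that fit edgeR gave 8 of the 10 an unadjusted p under 0.05, a share not counted over all genes. Leaving out the first vehicle library gave 3 falls past the thresholds, and leaving out the third vehicle library or the first E2 library gave 2.

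TNFAIP3 was lower with E2 on every scale. From 162.3 to 195.4 CPM in vehicle it was at 65.4 to 68.4 CPM with E2, and it fell by 1.42 on the log2 scale (2.68-fold, SE 0.114, adjusted p = 3.86e-08). Its log2 fold change was -1.35 with the trends removed and -1.49 with the RUV factor. NFKBIZ, at 16.3 to 22.5 CPM with E2, fell by 1.17 (SE 0.166, adjusted p = 1.14e-05), and its values were -0.73 and -0.68 on the other scales, the latter with an adjusted p of 0.299.

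The other changes with E2 alone depended on the scaling. NFKBIA had a log2 fold change of 1.08, or 0.33 with the trends removed and 0.86 with the RUV factor. ZC3H12A had 1.29, or 0.84 and 0.35, the last with an adjusted p of 0.438. TNIP1 gave 1.3, or 0.54 and 0.24, the last with an adjusted p of 0.553. NFKBIB at 0.89 became 0.03 and -0.60, and NFKBIE at 0.82 became -0.08 and -0.43. TRAF1, whose E2 and vehicle libraries overlapped, had -0.12 (adjusted p = 0.455), and on the other scales -0.72 (adjusted p = 8.22e-06) and -0.90 (adjusted p = 0.0594). BIRC3 at -1.38 (21.9 to 35.99 CPM with E2) turned to 1.29 (adjusted p = 1.31e-05) and 2.05 (adjusted p = 0.0254). The last is a rise past the study's thresholds. CYLD at -1.84 (18.7 to 27.0 CPM) turned to 0.40 with the trends removed (adjusted p = 0.00345). It was -0.39 with the RUV factor (adjusted p = 0.488).

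Both agents together against vehicle gave an adjusted p of at most 0.1 for all 10 genes, 8 of them higher and 2 lower, where 39.1% of all genes were higher and 41.5% lower. At the study's thresholds 4 rose, NFKBIA, TNIP1, TRAF1 and ZC3H12A, where 7.52% of all genes did. TRAF1 had a log2 fold change of 2.86 (2.33 with the trends removed), NFKBIA 1.96 (1.40), ZC3H12A 1.85 (1.40), TNIP1 1.80 (1.10), NFKBIE 1.49 (0.71), NFKBIB 1.39 (0.63) and TNFAIP3 1.14 (1.17). NFKBIZ was lower with both agents than in vehicle, by 0.42 on the log2 scale (adjusted p = 0.0247), though its libraries overlapped and the value was -0.04 with the trends removed. BIRC3 had 0.77 (2.75) and CYLD -1.39 (0.39). Without the second E2+ TNFα library the number of genes past the study's thresholds went from 4 to 7, since NFKBIB and NFKBIE (higher) and CYLD (lower) then passed the size threshold.

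Whether the TNFα response itself depended on E2 was tested as the interaction of the agents, the TNFα log2 fold change with E2 minus that without. At the study's thresholds 4 of the 10 genes passed, 2 positive (BIRC3 and CYLD) and 2 negative (ZC3H12A and TNIP1), where 31.8% of all genes passed, 22.5% positive and 9.29% negative. The vehicle libraries enter this test. With the trends removed 2 of the 10 passed, where 1549 of all genes tested did, and with the RUV factor 0 did, where 1348 did. In the RUV fit edgeR gave 4 of the 10 an unadjusted p under 0.05, a share not counted over all genes.

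ZC3H12A responded less to TNFα with E2 on every scale. Its TNFα log2 fold change was 2.82 without E2 and 0.56 with it, a difference of -2.26 (SE 0.2, adjusted p = 5.06e-07), or -1.79 with the trends removed and -1.33 with the RUV factor. NFKBIA had a difference of -1.48 (SE 0.151, adjusted p = 1.43e-06), which was -0.75 and -1.26 on the other scales, always past the adjusted p threshold. TNIP1 had -1.503, or -0.73 and -0.45, the last with an adjusted p of 0.279. It sits so near the size threshold that 11 of 21 alternatives took it under, among them at least 10 counts in every library (-1.434). When single libraries were left out it ran from -1.65 to -1.35.

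TNFAIP3 went the opposite way. It had a TNFα log2 fold change of 1.56 without E2 and 2.57 with it, a difference of 1.01 (SE 0.158, adjusted p = 5.13e-05), or 0.89 with the trends removed and 1.07 with the RUV factor. Its level with both agents was nevertheless below that with TNFα alone, and its level with E2 alone was the lowest of the 4 groups. TRAF1 had a difference of -0.87 (adjusted p = 0.000965), which was -0.29 with the trends removed and -0.10 with the RUV factor.

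The difference was 4.81 for BIRC3 (SE 0.5, adjusted p = 1.63e-06), 1.61 with the trends removed (adjusted p = 6.76e-05) and 1.22 with the RUV factor (adjusted p = 0.205). For CYLD it was 2.92, 0.44 and 1.46. NFKBIE had -1.33, -0.37 and -0.10, and NFKBIB -0.71, 0.20 and 0.75. NFKBIZ had -0.10 (95% interval -0.587 to 0.383, adjusted p = 0.7), so its TNFα response was not shown to depend on E2 on this scale, and -0.63 (adjusted p = 0.0133) with the trends removed.

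Levels per length of transcript (RPKM) put the 10 genes in an order that TNFα changed. TNIP1 was highest and NFKBIA second in all 4 groups without overlap with the next, at 443.5 ± 31.0 and 232.9 ± 7.32 RPKM with TNFα (SD, n = 3). TRAF1 was the ninth of 10 in vehicle, at 7.91 ± 0.274 RPKM, where each gene from the fifth to the eighth overlapped the next, and the third with TNFα, at 113.5 ± 9.15 RPKM, where it overlapped TNFAIP3 at 99.6 ± 10.9 RPKM, which in turn overlapped NFKBIE at 98.4 ± 5.51 RPKM. With E2 alone TRAF1 was the seventh, at 7.36 ± 1.62 RPKM, and TNFAIP3 the sixth, at 12.6 ± 0.301 RPKM. With E2+ TNFα TNFAIP3 was the third, at 74.8 ± 2.85 RPKM, but overlapped NFKBIE at 68.7 ± 10.7 RPKM, which overlapped TRAF1 at 57.3 ± 4.6 RPKM. BIRC3 was last with TNFα alone, at 1.58 ± 0.137 RPKM, not separate from CYLD at 1.74 ± 0.0906 RPKM. With both agents CYLD was last, at 3.69 ± 0.773 RPKM.

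Within the 3 cytoplasmic IκB genes, NFKBIA supplied the largest part of the summed RPKM in every library. Its share was 57.5% ± 2.44 in vehicle, 61.5% ± 4.78 with E2, 66.1% ± 2.14 with TNFα and 65.7% ± 2.08 with E2+ TNFα (SD, n = 3). The share of NFKBIB was 10.9% ± 0.291 with E2 and 8.8% ± 1.6 with E2+ TNFα, a range of 10.7% to 11.3% against 7.55% to 10.6%. It was 6.01% ± 0.723 with TNFα alone and 11.6% ± 1.29 in vehicle. NFKBIE held 25.5% ± 0.528 with E2+ TNFα and 27.6% ± 4.49 with E2, and these ranges overlapped. The shares are of RNA and say nothing of protein, which the IκB kinase controls by degradation. The shares are given as a description, and no test was run on them.

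**Figure D5:**
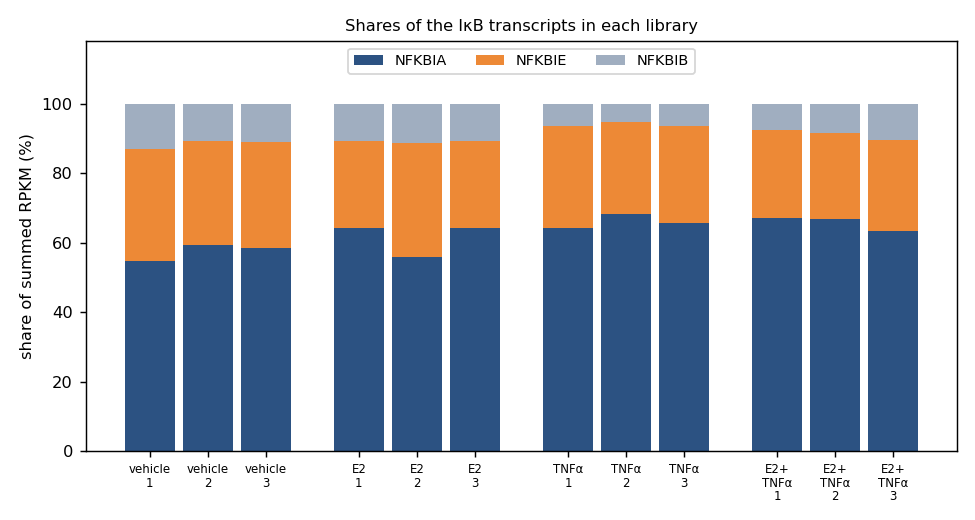
Share of the summed RPKM of NFKBIA, NFKBIE and NFKBIB (vertical axis, percent) in each of the 12 libraries, 1 stacked bar per library. NFKBIA is the largest part of every bar, from 54.7% to 68.4%, and the NFKBIB part is thinnest in the TNFα libraries, at 5.18% to 6.46%.

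Other genes of the pathway give the scale for these responses. Of 23 core pathway genes from the receptors to the NFκB subunits, 6 rose and 0 fell with TNFα in E2-treated cells (adjusted p of at most 0.1), with a median log2 fold change of 0.138, where 2.65% of all genes rose and 3.34% fell. REL, a subunit gene, was the one past the study's thresholds, with 0.889, 2.55 and 2.35 CPM in E2 and 6.06, 6.997 and 4.37 CPM in E2+ TNFα (log2 fold change 1.67, SE 0.371, adjusted p = 0.0316). Of 19 tested among 23 other negative regulators of NFκB, 4 rose and 1 fell, with a median of 0.284. Of 22 tested among 28 genes that NFκB induces and that are not inhibitors, 19 rose and 0 fell, with a median of 1.85, above the 0.712 of the 10 inhibitors. The 22 take in CCL20, CCL2 and TNF, which passed the filter on low values only through libraries that held TNFα. This count and median are therefore a description. CXCL3, a neutrophil chemokine gene, was at 1.98, 2.71 and 2.17 CPM in E2 and at 26.2, 22.7 and 24.0 CPM in E2+ TNFα, a log2 fold change of 3.45 (SE 0.193, adjusted p = 3.5e-08). The chemokine gene CCL20 had 0 counts in every E2 library and 18, 48 and 16 in the E2+ TNFα libraries, and CCL2 had 2, 1 and 0 against 16, 42 and 17, so no fold is given for either.

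Under TNFα, E2 lowered more of the effector genes than it raised. Of the same 22 genes 14 fell and 3 rose with E2+ TNFα relative to TNFα, where 21.0% of all genes fell and 24.4% rose, with a median log2 fold change of -1.0, where the median of the 10 inhibitors was -0.405. IL1B, the gene of the cytokine IL-1β, was at 1531, 1560 and 1711 CPM with TNFα and at 157.5, 147.6 and 152.5 CPM with E2+ TNFα, and fell by 3.39 on the log2 scale (SE 0.141, adjusted p = 1.02e-10). TNF itself was at 38.7, 37.4 and 34.0 CPM and at 9.83, 7.56 and 8.90 CPM, and fell by 2.07 (SE 0.201, adjusted p = 1.13e-06). CCL5, another chemokine gene, had 4, 3 and 7 counts with TNFα and 19, 47 and 53 with E2+ TNFα, and since it passed the filter on low values only through libraries that held E2, no test is given for it. The count and median of the 22 genes take in CCL5, and also CCL20 and CCL2, so they are a description. Of the 23 core pathway genes 7 fell and 6 rose, shares close to those of all genes, and the gene past the study's thresholds was that of the second TNF receptor, TNFRSF1B, which fell by 1.63 (SE 0.167, adjusted p = 1.98e-06), from 35.2, 30.0 and 37.1 CPM to 9.40, 10.2 and 13.3 CPM. Of the 19 other negative regulators 7 rose and 1 fell. The 2 comparisons share the E2+ TNFα libraries.

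Over the 9 libraries without vehicle, the gene whose log2 CPM followed NFKBIA most closely was NFKB1, the gene of the p50 subunit precursor, with a Pearson correlation of 0.998. CXCL3 (0.984), PPARA (0.983), TNF (0.983) and IL6 (0.982) came next. For TNFAIP3 the closest were EFNA1 (0.996), DRAM1 (0.993), CXCL1 (0.989), TRAF1 (0.985) and ETS1 (0.981). Within the 10 inhibitors the correlation with NFKBIA was 0.98 for TRAF1, 0.971 for TNFAIP3, 0.935 for NFKBIE, 0.905 for TNIP1, 0.891 for ZC3H12A and 0.887 for NFKBIZ. It was 0.583 for NFKBIB, -0.197 for BIRC3 and -0.366 for CYLD. These values describe 9 libraries that fall into 3 groups and carry no p.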

How the data were processed

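RNA-seq was measured in 12 libraries (4 groups of 3) of MDA-MB-231-ERβ cells. Reads were aligned to hg38 with TopHat2 (2.1.0) and assigned to genes with featureCounts, per the labels and the study's methods. The authors deposited raw counts per gene with an exon length. Their RUVseq correction is not in these counts, and its batches and housekeeping genes are not named in the sources used here. The annotation and the strand setting are likewise not given in the sources used here. Library totals ran from 7652016 to 39943664 counts. Of 12567 entries, 116 that repeated another entry's locus and counts were removed. CPM and RPKM were computed here from those deposited counts and lengths. The 11303 genes that reached 1 RPKM in 3 or more libraries entered edgeR 4.0.16 (R 4.3.3): TMM normalization, 1 fit of 4 group means on all 12 libraries, quasi-likelihood F test, two-sided, Benjamini-Hochberg adjustment over all of them. The study's thresholds were used (absolute log2 fold change of at least 1.5, p under 0.05, adjusted p of at most 0.1), and "rose" or "fell" elsewhere means an adjusted p of at most 0.1. The script was tested on simulated counts. Exon GC content came from the exon coordinates deposited with the counts and the hg38 sequence. GENCODE v44 served to check the loci, and 99.9% of matched symbols overlapped the deposited locus. Alternatives were DESeq2 1.42.0 and its size factors, library size alone, no filter, at least 10 counts in every library, an RUV factor from 20 housekeeping genes, removal of GC and length trends by loess (span 0.3), a replicate block, the compared groups alone, and leaving out each library. A fit without vehicle libraries was added after seeing the data. All 10 genes were named, and in the context lists at most 3 per comparison, those of largest change past the thresholds. The genes and lists were chosen with earlier results of these data known. Promoter sequences are from RefSeq (GRCh38.p14).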

Additional observations from a re-analysis of the deposited data

Results flagged for a closer look

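The TNFα response differed between cells with and without E2 past the study's thresholds for 4 of the 10 inhibitors, by the edgeR interaction test, where 31.8% of all genes tested did. By direction 2 were positive and 2 negative, where 22.5% and 9.29% of all genes were. The count is close to that of all genes and does not set the 10 apart. The difference in log2 fold change, with E2 minus without, was 4.81 for BIRC3 (adjusted p = 1.63e-06), 2.92 for CYLD (adjusted p = 4.4e-07), -2.26 for ZC3H12A (adjusted p = 5.06e-07) and -1.503 for TNIP1 (adjusted p = 9.35e-06). All 4 rest on the vehicle libraries, and over all genes tested the difference fell with exon GC content (Spearman correlation across genes -0.689). After removal of the GC and length trends the values were 1.61, 0.44, -1.79 and -0.73, so that BIRC3 and ZC3H12A stayed past the size threshold. With the RUV factor they were 1.22 (adjusted p = 0.205), 1.46, -1.33 and -0.45, all under the size threshold. TNIP1 was under it in 11 of 21 alternatives. A batch of the vehicle libraries and the vehicle condition cannot be told apart. Without vehicle libraries, only the levels within the other 3 groups bear on these genes, and there BIRC3 had its lowest level with TNFα alone and ZC3H12A its highest.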

How the results depend on the processing

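The limits are the vehicle libraries, whose GC trend enters 4 of the 6 comparisons, and 3 libraries a group. E2+ TNFα relative to E2 and to TNFα, without vehicle, had GC correlations of -0.331 and -0.21. Both use the E2+ TNFα libraries, of which replicate 3 stood apart. Its chi-square per degree of freedom was 55.7 and 71.3 against replicates 1 and 2. Other pairs within a group had 10.2 to 37. In its group it was lowest for BIRC3 and CYLD, between the others for NFKBIZ and highest for the remaining inhibitors. The reason was not tested. The counts of the 10 genes past the study's thresholds moved as follows. TNFα relative to vehicle gave 8, but 4 under the RUV factor, and again 4 after removal of the GC and length trends, with or without the replicate block (7 to 8 when single libraries were left out). E2 relative to vehicle gave 1, but 4 with library size alone and 0 with the trends removed, with or without the block, where edgeR gave 8 with an unadjusted p under 0.05 (1 to 3). With the RUV factor it also gave 1, but this was BIRC3 as a rise in place of CYLD as a fall. E2+ TNFα relative to vehicle gave 4, but 2 with the trends removed, with or without the block (4 to 7). These 2 were TRAF1 and BIRC3, and BIRC3 was not among the 4. With the RUV factor it gave 3, NFKBIA, TRAF1 and BIRC3. The interaction gave 4, but 0 under the RUV factor, where 4 had an unadjusted p under 0.05, and 2 with the trends removed, with or without the block (3 to 5). The share of all genes with such an unadjusted p was not counted. E2+ TNFα relative to E2 gave 3 (3 to 3), or 2 under the RUV factor or after removal of the trends, when BIRC3 fell under the size threshold. E2+ TNFα relative to TNFα gave 1 (1 to 1). Of 103 such counts over all alternatives 88 stayed within 1.5 times. The fit without vehicle libraries also gave 3 and 1.

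Among changes with an adjusted p of at most 0.1, directions turned only in comparisons with vehicle and in the interaction. With the RUV factor the log2 fold change was 0.10 for BIRC3 after TNFα, and -0.60 for NFKBIB, -0.43 for NFKBIE and 2.05 for BIRC3 after E2. With the trends removed, without and with the replicate block, it was -0.0846 and -0.0845 for NFKBIE, 1.29 and 1.26 for BIRC3 and 0.396 and 0.381 for CYLD after E2, and 0.386 both times for CYLD with both agents. The RUV factor gave 0.75 for the interaction of NFKBIB. Removal of the trends gave 0.20 and 0.199. The cause was not tested.

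Over all genes the number past the thresholds was 3016, 3447, 2837 and 3593 for TNFα, E2 and both relative to vehicle and the interaction. It was 1119, 1693, 1326 and 1348 under the RUV factor. Removal of the trends gave 1183, 1575, 1235 and 1549, and the block in addition 1194, 1567, 1252 and 1548. For E2+ TNFα relative to E2 it was 46, but 24 with at least 10 counts in every library, 28 with those groups alone and 84 without the third E2 library.

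No pairing of the libraries by replicate number was detected. The deviations from the group means of 18 same-numbered pairs correlated from -0.468 to 0.451, 5 of them over 0.1, and 3 of 12 libraries correlated best with their own number. Pairs of unlike number correlated from -0.531 to 0.634. Such shared variation can hide a pairing, so this check cannot exclude one. The replicate block changed 0 of 60 calls at the study's thresholds. At an adjusted p threshold of 0.1, the block left 6 in place of 8 of the genes in E2+ TNFα relative to E2, TNIP1 and ZC3H12A being those lost.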
